A study of Homo sapiens with 12 samples.

Results

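The data described here were the 6 RNAseq libraries of C4-2 cells treated with DMSO vehicle, which are 6 of the 12 libraries of the series. All 6 carried the sample group label CONTROL_DMSO and were numbered replicates 1 to 6, and this label chose them. The other 6 libraries were of the same cells treated with PBKi (HI-TOPK-032, an inhibitor of the kinase PBK, at 1 µM), and they are used only where the replicate numbers themselves were compared. Cells of both groups were grown in RPMI medium with 10% FBS and treated for 6 h. C4-2 is an established line, a castration-resistant subline of LNCaP prostate cancer cells, so every library came from 1 line and none from tissue. The labels name flow sorted cells as the source of the RNA but give no gate. They do not say whether the replicates were separate cultures, and p-values then measure only the spread between these libraries, which may be technical.

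Prostate luminal cells are the secretory cells that line the ducts of the gland. They depend on androgens, and factors such as FOXA1, HOXB13 and GATA2 take part in the transcription of their secretory genes, among them KLK3, which encodes prostate-specific antigen. Basal cells, which lie under them, express other keratins and the factor TP63, and prostate cancers are usually luminal. A cell line in culture also transcribes the genes of growth and housekeeping, so its profile mixes a lineage programme with those of any dividing cell.

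Levels are given in TPM, the count of a gene divided by its exon length and scaled to the same total in every library, which is the scale on which different genes can be compared. Values compared between libraries are in CPM, the count scaled by library size and TMM factor without regard to length. Reads assigned to genes ranged from 9663203 to 28029908 per library with a median of 13801732.5, and replicate 5 was the shallowest and had 3 sequencing lanes where the others had 4. At these depths 3 counts, taken as the limit of detection, were worth 0.107 to 0.310 CPM in 1 library and 0.0305 CPM over all 6, for counting error only.

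Promoter sequences of 4 genes are shown as examples of CpG-rich and CpG-poor promoters among both transcribed and silent genes in these cells. They are the 250 bases before and 50 bases after the RefSeq start site on GRCh38.p14, 5′ to 3′ on the strand of the gene, with every CpG dinucleotide in capitals. EEF2 (translation elongation factor 2; chr19:3985414-3985713, minus strand) had the most counts of all genes and has 41 CpG. KLK3 (chr19:50854665-50854964, plus strand) led the lineage genes and has 2. GSTP1 (a glutathione transferase whose promoter is methylated in most prostate cancers; chr11:67583562-67583861, plus strand) had 0 counts in all 6 libraries and has 36. ALB (serum albumin, a liver gene; chr4:73404037-73404336, plus strand) also had 0 counts and has 4.
EEF2: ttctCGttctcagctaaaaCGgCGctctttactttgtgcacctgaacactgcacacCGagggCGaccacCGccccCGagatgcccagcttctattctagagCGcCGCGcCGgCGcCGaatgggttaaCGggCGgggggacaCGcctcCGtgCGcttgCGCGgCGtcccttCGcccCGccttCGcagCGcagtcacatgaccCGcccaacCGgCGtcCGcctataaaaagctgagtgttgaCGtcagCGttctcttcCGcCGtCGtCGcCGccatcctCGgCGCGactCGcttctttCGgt
KLK3: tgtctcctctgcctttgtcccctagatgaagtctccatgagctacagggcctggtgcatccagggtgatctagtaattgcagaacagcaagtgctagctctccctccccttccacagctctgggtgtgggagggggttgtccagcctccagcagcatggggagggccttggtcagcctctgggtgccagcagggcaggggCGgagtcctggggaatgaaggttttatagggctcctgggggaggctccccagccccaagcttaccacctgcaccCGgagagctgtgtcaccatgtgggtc
GSTP1: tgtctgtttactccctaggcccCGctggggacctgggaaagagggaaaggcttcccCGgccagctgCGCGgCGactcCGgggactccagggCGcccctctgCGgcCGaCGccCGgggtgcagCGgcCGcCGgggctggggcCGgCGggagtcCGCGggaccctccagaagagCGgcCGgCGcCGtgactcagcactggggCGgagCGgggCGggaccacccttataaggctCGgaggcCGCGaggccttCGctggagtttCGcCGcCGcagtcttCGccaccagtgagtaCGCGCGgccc
ALB: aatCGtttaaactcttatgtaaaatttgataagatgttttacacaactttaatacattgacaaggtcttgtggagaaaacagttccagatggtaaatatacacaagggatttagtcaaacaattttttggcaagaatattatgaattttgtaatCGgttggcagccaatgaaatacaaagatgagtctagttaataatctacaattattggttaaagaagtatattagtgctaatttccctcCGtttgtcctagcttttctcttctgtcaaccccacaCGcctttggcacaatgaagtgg

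All 4 sequences hold the letters TATA in the window from 40 to 16 bases before the start, at position -30 in EEF2, -26 in KLK3, -28 in GSTP1 and -30 in ALB. Of 19006 protein-coding genes with a level, 10939 had 1 start site in the table, and their promoters were examined in the same way. A match of letters is a description and not a binding site.

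Silent genes mostly had CpG-poor promoters and transcribed genes mostly CpG-rich ones. The median was 4 CpG in 1559 promoters of genes with 0 counts, 10 in genes under 1 TPM and 25 in genes from 1 to under 10 TPM. It then levelled at 28 in both of the next classes (3927 genes from 10 to under 100 TPM and 1205 from 100 to under 1000 TPM) and was 27 in 69 genes at 1000 TPM or more. TATA in the stated window, on the strand of the gene, had another course. It was in 19.8% of promoters of genes with 0 counts, 2.42% from 10 to under 100 TPM and 33.3% at 1000 TPM or more, against 8.68% of all. The letters CCGGAAG, a sequence bound by ETS factors, were found on either strand in 2.95% of promoters with 0 counts and 24.9% of those from 10 to under 100 TPM. CCAAT on either strand ranged only from 34.1% to 42.3% over the classes, and GGGCGG from 25.8% to 76.3%. CCGGAAG and GGGCGG each contain a CpG, while CCAAT does not, and CpG content differed between the classes. What part CpG content had in these shares was not tested. GSTP1 belongs to the 260 of 1559 silent promoters (16.7%) that hold 20 CpG or more, against 58.7% of all promoters. DNA methylation was not measured in these libraries.

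**Figure D1:**
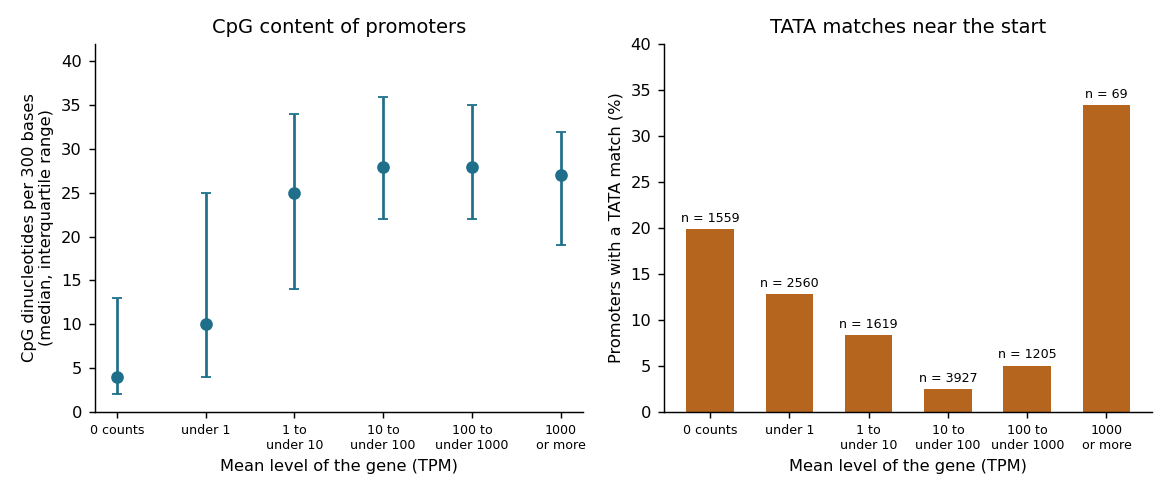
Left, CpG dinucleotides per 300-base promoter (median, bars for the interquartile range) by the mean TPM of the gene over 6 DMSO libraries. Right, percentage of the same promoters with TATA from 40 to 16 bases before the start, with the number of promoters above each bar. CpG content steps up between genes under 1 TPM and genes from 1 to under 10 TPM, and TATA matches are most frequent at both ends of the range.

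The files list 54127 genes. Of these, 24390 (45.1%) had 0 counts in all 6 libraries, and each library had between 21294 and 25312 genes with at least 1 count. Among 40052 genes with an exon length, 12913 reached 1 TPM in every library, of which 11310 were protein-coding, 740 long non-coding and 503 processed pseudogenes. Reads on processed pseudogenes may belong to their parent genes. Protein-coding genes took 97.2% ± 0.107 of the counts (SD, n = 6), long non-coding RNAs 0.687% ± 0.0550 and processed pseudogenes 0.161% ± 0.00901.

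Counts were spread over many genes. The 10 most counted genes held 3.18% ± 0.140 of counts (SD, n = 6), 1145 genes held 50% and 5872 genes held 90%. Of 19006 protein-coding genes, 111 were at 1000 TPM or more, 1975 from 100 to under 1000 TPM, 6650 from 10 to under 100 TPM and 3020 from 1 to under 10 TPM, while 4690 lay under 1 TPM and 2560 had 0 counts. The class from 100 to under 1000 TPM held 45.3% of all counts and the highest class 12.2%. The median protein-coding gene was at 6.68 TPM, and 61.9% of protein-coding genes reached a mean of 1 TPM, 46.0% reached 10 TPM and 11% reached 100 TPM. These shares are the background for the gene lists that follow.

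Translation, protein folding and glycolysis supplied most of the 20 nuclear protein-coding genes with the highest TPM. GAPDH (a glycolytic enzyme, ENSG00000111640, chromosome 12 of GRCh37 from 6643678 to 6647540) led with 5771 ± 629 TPM (SD, n = 6), with a lowest library of 4956, a median of 5878 and a highest of 6439. EEF2 (ENSG00000167658, chromosome 19 from 3976054 to 3985461) had 5524 ± 988 TPM, with values from 4431 to 7072 around a median of 5310. The ranges of these genes overlapped, so their order is not set by these libraries. Behind them came RPS12 with 5142 ± 775 TPM, ATP5F1B (a subunit of the mitochondrial ATP synthase) with 4904 ± 119, HSP90AB1 with 4421 ± 143, RPS6 with 4406 ± 396 and RPS18 with 4392 ± 642.

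Ribosomal proteins held 9 of the 20 places, among them RPL8, RPL7A, RPL27 and RPL13A at 2332 to 3251 TPM. Only uniquely aligned reads were counted, so genes with near-identical copies, as ribosomal protein genes have, may be undercounted. The chaperone genes HSP90AB1, HSP90AA1 (2758 ± 86.8 TPM), HSPA8 (2742 ± 151) and CALR (2955 ± 91.6) took 4 places, ENO1 (2622 ± 311) joined GAPDH for glycolysis, and ACTB (cytoskeletal actin, 3029 ± 242) and PTMA (prothymosin alpha, 2140 ± 30.2) were also among the 20. KLK3 was the one tissue-restricted gene of the 20. The 13 protein genes of the mitochondrial genome lay at mean levels from 822 TPM (MT-ND6) to 5692 TPM (MT-ND4), and together they held 0.732% ± 0.209 of counts. MT-ATP8 overlaps MT-ATP6 and MT-ND4L overlaps MT-ND4, and reads in such stretches were left out by the counting.

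By counts alone, where long transcripts weigh more, EEF2 led with 5081 ± 919 CPM, followed by HSP90AA1 with 3215 ± 80.3 CPM. MME, the gene of the surface peptidase neprilysin (CD10), which prostate luminal cells carry, was also among the 10 most counted genes with 2511 ± 222 CPM. On the per-length scale MME had 1115 ± 129 TPM (lowest 966, median 1101, highest 1302).

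Of 29 measured luminal secretory and surface genes, 24 reached 1 TPM in every library, 21 reached a mean of 10 TPM and 15 reached 100 TPM. KLK3 (ENSG00000142515, chromosome 19 of GRCh37 from 51358171 to 51364020) had 2744 ± 277 TPM, with a lowest library of 2397, a median of 2815 and a highest of 3092. It stood 20th of all genes by TPM. KLK2, the neighbouring kallikrein, had 313 ± 45.5 TPM and KLK4 171 ± 10.2 TPM, so that KLK3 exceeded both in every library. Reads shared by KLK2 and KLK3, which are similar in sequence, could have been dropped.

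Surface and metabolic genes of luminal cells followed. FOLH1 (prostate-specific membrane antigen) had 408 ± 36.2 TPM, STEAP1 (a metalloreductase) 384 ± 62.7, AZGP1 (a secreted zinc-binding glycoprotein) 318 ± 26.0 and STEAP2 297 ± 54.5. SLC43A1, an amino acid transporter, had 236 ± 21.1 TPM, and TMPRSS2, a membrane protease, 130 ± 25.2 TPM. Markers of the secretory gland were not all present. ACP3 (prostatic acid phosphatase) had 5.98 ± 0.768 TPM, AMACR 4.85 ± 0.543, and KLK11 and TGM4 (prostate transglutaminase) had 2 and 10 counts over all 6 libraries. AMACR overlaps another annotated gene, and reads in such stretches were left out by the counting.

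All 10 transcription factors of the luminal list reached 1 TPM in every library. EHF, an epithelial ETS factor, was highest with 595 ± 66.1 TPM, followed by HOXB13 (chromosome 17 from 46802125 to 46806112) with 426 ± 39.1, FOXA1 with 372 ± 27.0, SPDEF with 299 ± 29.4, GATA2 with 207 ± 17.8, GRHL2 with 181 ± 20.8 and CREB3L4 with 150 ± 3.68 TPM. EHF was above HOXB13 in every library, while HOXB13 was above FOXA1 within each library although their ranges over the 6 overlapped. With the length of the longest transcript in place of all exons, HOXB13 (297 TPM) lay below FOXA1 (326 TPM). ONECUT2 (7.12 ± 1.28 TPM) and ZBTB16 (5.04 ± 0.775 TPM, an androgen-induced zinc finger factor) were the lowest of the list.

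Of 47 measured nuclear receptors, 29 reached a mean of 1 TPM and 5 had 0 counts (RXRG, NR1H4, RORB, NR2E1 and NR5A1). The orphan receptors ESRRA (112 ± 15.5 TPM), NR2F6 (105 ± 21) and NR2F2 (83.4 ± 5.45) were among the highest, followed by NR1D2 (58.0 ± 11.7), a clock component. RXRB (53.9 ± 5.67 TPM) and RXRA (41.5 ± 4.72), partners of many receptors, were both present, and NR1H2, an oxysterol receptor, had 40.8 ± 3.89 TPM. Several steroid receptors were near the limit of detection. NR3C1, the glucocorticoid receptor, had 0.107 ± 0.0449 TPM from 1 to 10 counts per library, PGR 0.101 ± 0.0495, ESR2 0.113 ± 0.0710 and ESR1 4 counts over all libraries. NR3C2, the mineralocorticoid receptor, was higher with 6.14 ± 0.826 TPM.

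Genes of simple epithelia were also transcribed, with 20 of 21 measured at 1 TPM or more in every library. The junction genes CLDN7 (387 ± 10.9 TPM), CDH1 (380 ± 35.3) and CLDN4 (265 ± 19.7) led, with the protease inhibitors SPINT1 (234 ± 18.1) and SPINT2 (210 ± 8.95), the adhesion molecule EPCAM (227 ± 13.2) and the protease ST14 (210.5 ± 24.7). Among luminal keratins, KRT18 had 197 ± 21.9 TPM and KRT8 96.0 ± 9.18 TPM, both uncertain because of their many pseudogene copies. KRT19 was low at 3.55 ± 0.706 TPM, and KRT7 had 2 counts over all 6 libraries.

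Basal and squamous markers were nearly silent. Of 20 measured, 3 reached a mean of 1 TPM, namely ITGB4 (6.43 ± 1.24 TPM), KRT14 (2.66 ± 0.335) and SFN (1.34 ± 0.463). KRT5, KRT6A, KRT6B, KRT13, KRT17 and BNC1 had 0 counts in all 6 libraries, and TP63, the defining factor of basal cells, had 3. The summed level of the list ran from 11.8 to 14.1 TPM per library, against 5912 to 7223 TPM for the luminal secretory and surface list. In bulk RNA, fewer cells of a type and less RNA per cell cannot be told apart.

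Neuroendocrine markers, which mark a lineage that some castration-resistant cancers take on, were mostly low, with 6 of 24 at 1 TPM or more in every library. DDC (aromatic amino acid decarboxylase) had 62.3 ± 4.02 TPM, DLL3 (a Notch ligand) 27.9 ± 1.44 and ENO2 (neuron-specific enolase) 9.60 ± 3.29. SRRM3 (4.60 ± 0.820 TPM), NKX2-2 (3.04 ± 0.452) and SCG5 (1.77 ± 0.348) completed the 6. The other 18, among them further factors and granule genes of the lineage, had means under 1 TPM. INSM1, NEUROD1, GRP and STMN2 had 0 counts, CHGA 6 counts over all libraries, and SYP 0.807 ± 0.230 TPM.

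Of 24 mesenchymal and stromal markers, 8 reached 1 TPM in every library. FN1 (fibronectin) had 53.4 ± 9.61 TPM, VIM (vimentin) 13 ± 1.43, SNAI1 10.7 ± 1.12 and COL1A1 8.91 ± 1.00, while CDH2 and POSTN had 0 counts and TWIST1 had 2. CDH1 was above VIM in every library on the TPM scale. Of 20 immune cell markers, 0 reached 1 TPM in every library, LYZ, MS4A1, CD2, CD3D and CD3E had 0 counts, and the whole list summed to between 2.83 and 6.26 TPM. Of 12 endothelial markers, VWF alone reached 1 TPM (2.17 ± 0.503), and KDR, TEK and MMRN1 had 0 counts. Of 35 markers of other organs, 5 reached 1 TPM in every library, led by MBP (19.3 ± 2.32 TPM), PRSS1 (4.74 ± 1.26) and PMEL (3.58 ± 0.614), and ALB, INS, FGB, UMOD, SCGB1A1, HBB and DAZL had 0 counts.

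**Figure D2:**
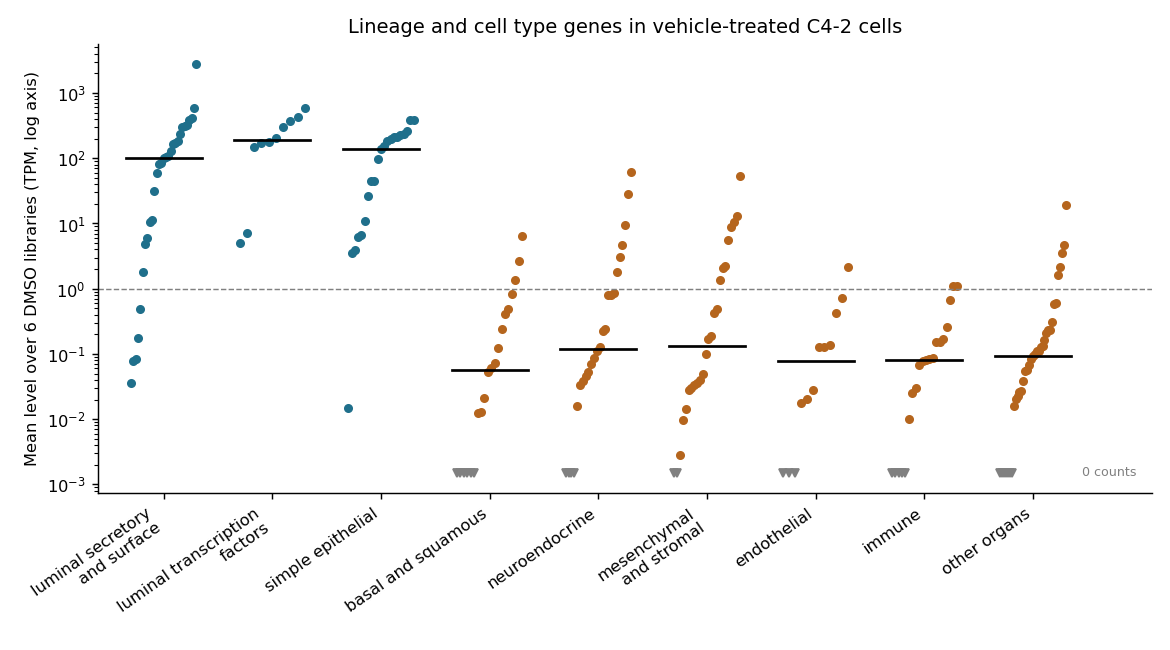
Mean TPM over 6 DMSO libraries (log axis) of each measured gene of 9 lists, with a bar at the median of the list, a dashed line at 1 TPM and triangles for genes with 0 counts. The medians of the 3 luminal and epithelial lists (blue) lie at 100, 194 and 138 TPM, and those of the 6 lists of other cell types (brown) lie from 0.0572 to 0.134 TPM.

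The label C4-2 was checked against genes whose state in LNCaP cells is well known. GSTP1, silenced in LNCaP cells, had 0 counts. JAK1, a kinase of cytokine receptors that is deficient in LNCaP cells, had 1.61 ± 0.183 TPM. ETV1 went against the label, for a reason that was not tested. This ETS gene is rearranged and transcribed in LNCaP cells, but it had 7 counts over all 6 libraries, 0 to 3 in each. KLK3 and FOLH1 were transcribed as in a prostate luminal line.

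ETS factors other than ETV1 showed the epithelial pattern. Of 25 measured, 17 reached 1 TPM in every library, with EHF and SPDEF above all others and ELK4 (75.5 ± 13.7 TPM), ELK1 (75.1 ± 5.78), GABPA (42.8 ± 4.03) and ELF1 (42.7 ± 4.90) behind them. FLI1 had 0 counts, ERG, the factor most often fused in prostate cancer, had 4 over all libraries, and ETV4 had 0.555 ± 0.0661 TPM and ETV5 0.463 ± 0.129 TPM. Of 30 tumour suppressors and oncogenes of prostate cancer, 28 reached 1 TPM in every library. MYC (283 ± 15.2 TPM) and CCND1 (cyclin D1, 267 ± 30.6) were highest, CTNNB1 (142 ± 5.55) and PIK3CB (93.2 ± 11.9) were also high, and RB1 had 70.1 ± 4.92 TPM.

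HOX genes, which record the position of a tissue along the body axis, were transcribed unevenly over the 4 clusters. In the HOXA cluster 9 of 11 measured genes reached a mean of 1 TPM and in HOXC 8 of 9, against 3 of 9 in HOXB and 1 of 9 in HOXD. HOXB13, at the posterior end of its cluster, was at 426 TPM, while HOXB1 and HOXB2 had 0 counts and HOXB9, its nearest measured neighbour, had 7.80 ± 1.21 TPM. The next highest were HOXA10 (36.2 ± 2.18 TPM), HOXC6 (35.8 ± 1.63), HOXC13 (28.5 ± 3.35), HOXC9 (20.6 ± 3.14), HOXA11 (19.4 ± 1.88) and HOXA5 (13.3 ± 1.68). HOXD13 (6.18 ± 1.11 TPM) was the only HOXD gene above 1 TPM, and HOXD4, HOXD9, HOXD10 and HOXD11 had 0 counts.

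**Figure D3:**
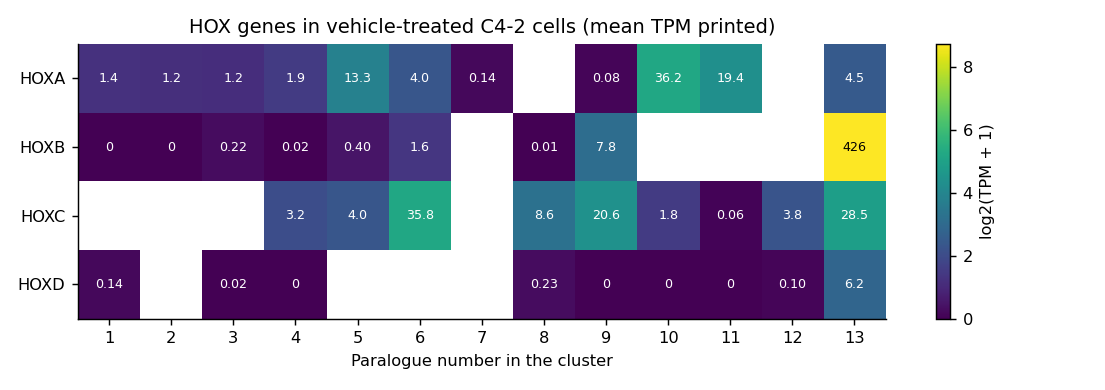
Mean TPM of 38 HOX genes over 6 DMSO libraries, printed in each cell, with cluster as row, paralogue number as column and colour for log2(TPM + 1); white cells have no measured gene. HOXB13 stands alone in a weakly transcribed HOXB cluster, and HOXD genes other than HOXD13 lie under 1 TPM.

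Of 51 receptor tyrosine kinases, 25 reached a mean of 1 TPM and 13 reached 10 TPM. ERBB3 (85.8 ± 12.3 TPM), DDR1 (a collagen receptor, 82.0 ± 9.37) and EGFR (73.3 ± 18.3) had overlapping ranges at the top, followed by the ephrin receptors EPHB4 (60.6 ± 7.17) and EPHA3 (60.4 ± 6.22), ERBB2 (48.3 ± 5.43) and the Wnt receptor RYK (43.1 ± 2.88). IGF1R had 4.58 ± 0.932 TPM and MET 1.31 ± 0.167 TPM. KIT had 1 count over all libraries, and TEK, KDR, ROS1 and MUSK had 0.

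Genes of dividing cells were among the most transcribed. All 36 cell cycle genes reached 10 TPM and 27 reached 100 TPM. PCNA, the replication clamp, had 1204 ± 142 TPM, CCNB1 (cyclin B1) 838 ± 100.2, its kinase CDK1 784 ± 129, the replicative helicase subunit MCM7 437 ± 22.5, CDC20 423 ± 31.5, TOP2A 329 ± 31.7 and RRM1 325 ± 16.5. PBK (ENSG00000168078), the mitotic kinase targeted by PBKi, had 439 ± 73.6 TPM, with a lowest library of 326, a median of 452 and a highest of 529, which placed it 347th of all genes.

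Genes of biosynthesis and of stress responses also had high levels. These were not compared with another state of the cells, so they do not show whether a response was active. Of 24 genes of cholesterol synthesis and uptake, 22 reached 10 TPM, led by INSIG1 (674 ± 61.6 TPM), a brake on the pathway, with FDFT1 (squalene synthase, 464 ± 30.0) also among the highest. Of 24 genes of the integrated stress and unfolded protein responses, 19 reached 100 TPM, with CALR, DDIT4 (1553 ± 172 TPM), PSAT1 (1460 ± 151, serine synthesis), HSPA5 (1274 ± 177, the chaperone BiP), PDIA4 (1153 ± 109) and ATF4 (945 ± 47.6), the factor that drives the response. Glycolytic genes were high (TPI1 1361 ± 116 TPM, PGK1 1191 ± 200, ALDOA 1141 ± 185 and LDHA 1010 ± 131), while CA9, a gene of strong hypoxia, had 2.06 ± 1.05 TPM.

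Cancer-testis genes, which are silent in most adult tissues outside the germ line, were transcribed selectively, with 8 of 25 measured at 1 TPM or more in every library. PAGE1 (ENSG00000068985, chromosome X from 49452050 to 49460587) had 1397 ± 169 TPM, with a lowest library of 1209, a median of 1394 and a highest of 1627, and stood 59th of all genes. MAGEA1 (258 ± 23.5 TPM), PRAME (213 ± 8.27), MAGEA12 (159 ± 20.6), MAGEA3 (141 ± 7.36) and MAGEA6 (121 ± 3.90) followed. MAGEB2, CTAG1B, PAGE2, SSX2, XAGE1B and PAGE5 had 0 counts. MAGEA members, CTAG1B, PAGE2 and XAGE1B have near-identical copies, so their levels are uncertain and a count of 0 does not show that they were silent. The PAGE1 promoter has 13 CpG and no TATA in the window.

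Among long non-coding RNAs, GAS5 (242 ± 50.9 TPM) and SNHG1 (126 ± 39.7), both hosts of small nucleolar RNAs, TUG1 (134 ± 12.9), MALAT1 (88.9 ± 25.7) and NEAT1 (44.2 ± 15.2) led the list of 17 measured. PCA3, the prostate RNA of a urine test, had 0.0952 ± 0.0652 TPM, and PCGEM1 had 0 counts. TUG1 had a coefficient of variation (CV, the SD as a percentage of the mean) of 6.66% over the libraries, and NEAT1 one of 34.6%.

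Several gene families of other tissues had 0 counts in most members. The families were chosen after their values were seen. Of 379 olfactory receptors, 332 had 0 counts in all libraries and 1, OR2B6, reached a mean of 1 TPM (1.2 TPM). All 17 type I interferon genes and all 18 late cornified envelope genes had 0 counts, as did 83 of 92 keratin-associated proteins, 34 of 40 beta-defensins and 20 of 22 PRAME family members of the PRAMEF series. Only uniquely aligned reads were counted, so in members with near-identical copies 0 counts do not show that they were silent. Fewer bitter taste receptors had 0 counts, with 8 of 24 (33.3%). Of large families of general use, 22 of 497 zinc finger genes of the ZNF series and 27 of 337 solute carriers had 0 counts, against 13.5% of all protein-coding genes.

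Libraries were alike in most genes. Over the 14320 genes that had 10 counts or more in 3 or more libraries, the median CV of CPM was 11.5% (interquartile range 7.72% to 17.4%), and 40.7% of genes had a CV under 10%. The CV fell with level, from a median of 32.2% in genes under 1 CPM, where counting error alone gives 32.2%, to 9.49% from 10 to under 100 CPM and 8.26% from 100 to under 1000 CPM, where counting error gives 4.36% and 2.02%. In genes above 10 CPM the spread between libraries was thus larger than that of counting. The common biological coefficient of variation in edgeR was 10.2% with the 6 libraries as 1 group and 7.98% with replicates 1 to 3 and 4 to 6 as separate groups.

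The least variable genes at a mean log2 CPM of at least 5 were PPP4R1 (a regulatory subunit of protein phosphatase 4), with 66.9 to 68.3 CPM and a CV of 0.704%, POLR1B (RNA polymerase I, CV 1.21%), HNRNPD (an RNA-binding protein, 1.25%), ERGIC3 (secretory pathway, 1.27%) and PEX19 (peroxisome assembly, 1.31%). MRPS30, AIFM1, HSPA4 and GID8 followed with 1.39% to 1.52%. Among 20 genes often used as references in qPCR, ALAS1 varied least (CV 2.94%) and SDHA had 5.80%, while GAPDH had 11.7% and B2M 18.0%. The median CV of the 6408 genes at a mean log2 CPM of at least 5 was 8.54%. The lineage genes FOXA1 (CV 4.84%), KLK3 (7.84%) and EHF (7.93%) varied less than this median, and NDRG1, a stress- and androgen-responsive gene, had 30.8%. These genes do not stand for their lists. The median CV was 9.41% over the 25 tested luminal secretory and surface genes and 8.51% over the 10 luminal factors. Over all tested genes it was 11.5%.

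Single libraries set several of the most variable genes. FTH1 (ferritin heavy chain, a gene with many pseudogene copies), with a CV of 50.2%, had 259 CPM in replicate 5 and 92.1 to 115 CPM in the other 5 libraries. LRP3 (a lipoprotein receptor relative) had 90.9 CPM in replicate 5 against 40.7 to 49.8, and PITX1 (a homeobox factor) 69.8 CPM against 31.9 to 38.9. The longest transcripts of LRP3 and PITX1 have GC contents of 67.4% and 68.8%, against 47.9% in the median tested gene. That of FTH1, the most variable gene, has 49.96%, near this median. HMOX1 (haem oxygenase), with a CV of 39.7%, had its lowest value, 31.7 CPM, in replicate 3 and its highest, 116 CPM, in replicate 6. Protein genes of the mitochondrial genome varied together. Their share of counts was 0.404% in replicate 6 and 1.04% in replicate 5, with 0.636% to 0.805% in the other 4, and MT-ND3 (CV 43.4%), MT-ATP8 (36.6%), MT-CYB (36.0%) and MT-CO3 (35.4%) were among the 10 most variable genes, as was the ribosomal RNA MT-RNR2 (38.4%).

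Replicate 5 was the library least like the others. Across the tested genes, which are not independent replicates, Pearson correlations of log2 CPM with its 5 partners were 0.987 to 0.990. They were 0.995 to 0.996 among replicates 1 to 3, and 0.990 to 0.993 between replicates 1 to 3 and replicates 4 and 6. In replicate 5, 7.10% of genes lay more than 0.5 log2 units from the mean of the 6 libraries, against 1.84% to 4.43% in the others. Replicate 5 was also the shallowest library, where counting error is largest, and what part depth had was not tested.

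**Figure D4:**
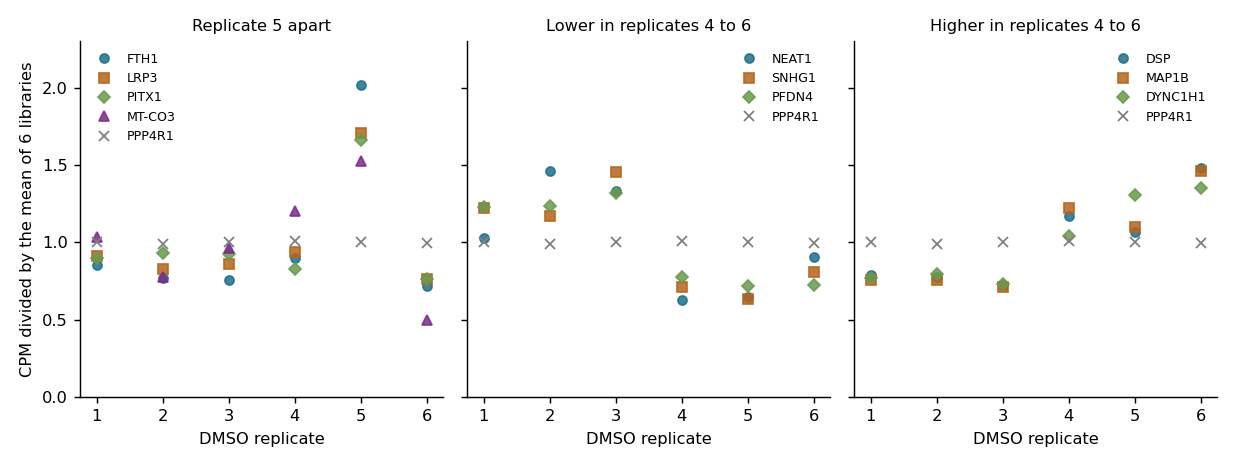
CPM of named genes in each of the 6 DMSO libraries, divided by the mean of the 6, with PPP4R1 as the least variable gene for comparison. FTH1, LRP3 and PITX1 are high in replicate 5 alone, MT-CO3 is highest in replicate 5 and lowest in replicate 6, NEAT1, SNHG1 and PFDN4 are lower in replicates 4 to 6, and DSP, MAP1B and DYNC1H1 are higher there.

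Replicates 1 to 3 and 4 to 6 had been seen to separate in earlier work on these data, and the labels do not say what the numbers mark. The p-values and counts of called genes given for them, here and below, thus describe these sets and are not an independent test of them. Of 14320 genes tested, 812 (5.67%) differed between these sets, called where the quasi-likelihood test of edgeR gave a Benjamini-Hochberg adjusted p under 0.05, 299 (2.09%) higher and 513 (3.58%) lower in replicates 4 to 6, with the smallest adjusted p at 0.00723. The differences were small, with a median size of 0.39 on the log2 scale and 29 genes over 1. The sets did not overlap in 4153 genes (29%). The count rested on single libraries. It was 50 without replicate 1, 0 without replicate 2, 1 without replicate 3, 141 without replicate 4, 1997 without replicate 5 and 1023 without replicate 6, while the genes with an unadjusted p under 0.05 numbered 3271 with all 6 libraries, 2271 without replicate 1, 2820 without replicate 2 and 1810 without replicate 3.

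SNHG1 and NEAT1, both non-coding RNAs, were among the 8 largest differences downward of genes with a mean log2 CPM of 3 or more and no overlap between the sets. SNHG1 had 140.1, 134 and 167 CPM in replicates 1 to 3 and 81.9, 72.7 and 93.1 CPM in replicates 4 to 6, a log2 difference of -0.84 (standard error 0.103, adjusted p = 0.00852 in edgeR's quasi-likelihood test). NEAT1, the RNA of nuclear paraspeckles, had 237, 337 and 306 CPM against 144, 149 and 208 CPM, a log2 difference of -0.81. GAS5 (log2 difference -0.54), MALAT1 (-0.68) and MIR17HG (-1.59, at under 1 TPM) were lower as well, so that 5 of the 12 tested long non-coding RNAs of the list were lower and 0 higher, against 3.58% lower and 2.09% higher of all genes. Over all long non-coding RNAs the share was that of other genes, since they were 5.85% of the lower genes (30 of 513) and 6.05% of all tested (867 of 14320). Calls for these 5 held in 1 to 4 of the 6 fits that each left out 1 library. The fits without replicate 2 and without replicate 3 called 0 and 1 genes in all. At most 1 gene could thus hold in more than 4 fits, here and in the counts of fits below. Over the 6 fits the log2 difference of SNHG1 ran from -0.93 to -0.72.

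The rest of these 8 were AHSA2P, CCDC78, NSUN5P1, PABPC1L (a poly(A)-binding protein relative), PFDN4 (a prefoldin subunit) and CPNE7, with log2 differences from -0.96 to -0.73. PFDN4 had 38.2, 38.5 and 41.1 CPM in replicates 1 to 3 and 24.2, 22.2 and 22.6 CPM in replicates 4 to 6. AHSA2P and NSUN5P1 share sequence with parent genes and are uncertain.

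By the same rule, 7 of the 8 largest differences upward were in genes with much exon sequence. DSP (desmoplakin, a protein of cell junctions) had 201, 199 and 184 CPM in replicates 1 to 3 and 299, 273 and 379 CPM in replicates 4 to 6, a log2 difference of 0.70 (standard error 0.104, adjusted p = 0.0110 in edgeR's quasi-likelihood test). DYNC1H1 (the dynein heavy chain) had 241, 248 and 228 CPM against 324, 407 and 422, a log2 difference of 0.69. MAP1B (a microtubule-associated protein) had 77.1, 77.3 and 72.5 CPM against 125, 112 and 149, a log2 difference of 0.77. MAB21L4, with the largest log2 difference of these 8 at 1.04, had 5.13, 4.50 and 8.64 CPM against 13.6, 13.1 and 12.7, and TTC28, LRP1, ZBED6 and TRIM56 had log2 differences from 0.62 to 0.70. MAB21L4 has an exon length of 2772 bases, and the other 7 have 11131 (TRIM56) to 38874 (DYNC1H1). Each of these 16 genes was called in 2 to 4 of the 6 fits without 1 library.

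Of 25 tested luminal secretory and surface genes, CAMKK2 (a kinase induced by androgen, log2 difference 0.36) and NDRG1 (0.61) were higher and STEAP1 (-0.40) lower, against 5.67% called of all genes. KLK3 had 2905 ± 230 CPM in replicates 1 to 3 and 2909 ± 278 CPM in replicates 4 to 6 (SD, n = 3 each). Of the 20 simple epithelial genes tested, 0 were called by edgeR, DESeq2 or limma-voom, and 3 had an unadjusted p under 0.05 in edgeR. ERBB3 (0.31) and EGFR (0.47) were higher among the 26 receptor tyrosine kinases tested.

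Of all tested genes 3.58% were lower and 2.09% higher in replicates 4 to 6. Among 36 cell cycle genes, 6 were lower, namely CDK1 (log2 difference -0.44), CCNB1 (-0.33), PCNA (-0.32), CCNE2 (-0.46), GINS2 (-0.44) and PBK (-0.43), and MKI67 was higher (0.40). The median log2 difference of the list was -0.09, against 0.01 over all tested genes, and each of these calls held in 1 to 3 of the 6 fits without 1 library. Of 22 tested hypoxia-responsive and glycolytic genes, CA9, NDRG1, HK2 and PFKFB4 were higher and 0 lower, with calls that held in 2 (CA9) or 1 of those fits. Of the 20 qPCR reference genes, 4 were lower, among them B2M (-0.45), PPIA (-0.34) and HPRT1 (-0.31), and 0 were higher. Of the 24 genes of the stress responses, 0 were called by edgeR (3 at an unadjusted p under 0.05) and 1 by DESeq2 and by limma-voom.

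Exon length and base composition moved with the sets, but not in every library. The 299 genes higher in replicates 4 to 6 had a median exon length of 11336 bases and the 513 lower ones 3533, against 5130 for all tested genes. With the genes in 5 groups of nearly equal size by exon length, the median log2 difference rose from -0.09 in the shortest group to 0.10 in the longest, and 193 of the 299 higher genes were in the longest. In the median deviation from the mean of the 6 libraries, replicates 1 and 3 ran from 0.07 in the shortest group to -0.05 and -0.07 in the longest, and replicate 6 ran from -0.11 to 0.11. Replicate 4 ran from -0.04 to 0.02 and replicate 2 from 0.02 to -0.01, and replicate 5 had no such trend, with -0.0046 in the shortest group and -0.0061 in the longest. GC content set replicate 5 apart, which ran from -0.17 in the group of genes with the lowest GC to 0.23 in the highest. Replicate 6 ran the other way, from 0.06 to -0.11. Between the sets, the median log2 difference rose from -0.07 in the group with the lowest GC to 0.08 in the highest. Lower genes had a median GC content of 41.8% and higher ones 49.9%, against 47.9% of all. What part length and GC had in single genes was not tested.

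**Figure D5:**
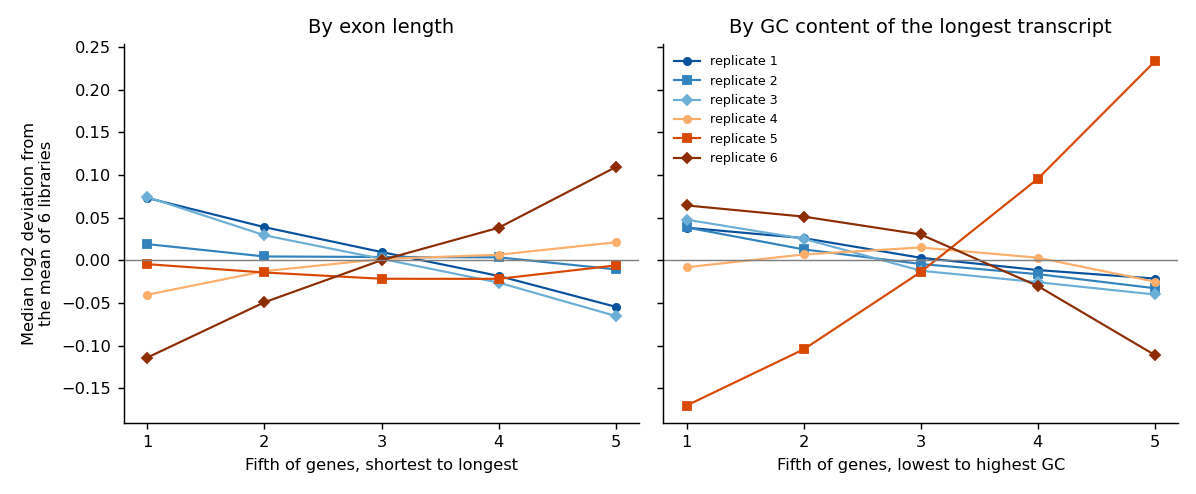
Median log2 deviation of each DMSO library from the mean of the 6, over 5 groups of the tested genes formed by exon length (left) or by GC content of the longest transcript (right), with 2768 to 2770 genes in each group. Replicates 1 and 3 fall and replicate 6 rises with exon length, and replicate 5 rises from -0.17 to 0.23 with GC content.

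The same numbers were compared in the PBKi libraries, which the tests above did not use. There, 51 of 14807 genes (0.344%) differed between replicates 4 to 6 and 1 to 3 by the same edgeR test and threshold, 22 (0.149%) higher and 29 (0.196%) lower, and 0 without replicate 2 or without replicate 4 and 206 without replicate 1. Without replicate 2, 1749 genes there had an unadjusted p under 0.05, and without replicate 4 the number was 2134. Without replicate 5 the count was 9 and without replicate 6 it was 33. Of 809 genes called in DMSO and tested in PBKi, 792 (97.9%) differed in the same direction and 35 were called the same way, against 71.8% in the same direction of all 14100 genes tested in both. SNHG1 had a log2 difference of -0.45 there (adjusted p = 0.0647), DSP 0.50 (adjusted p = 0.0509) and PABPC1L -0.88 (adjusted p = 0.0322), all from the same edgeR test. The trend with exon length was also there at a smaller size, from -0.04 in the shortest group to 0.04 in the longest. So was the trend with GC content, from -0.05 in the group with the lowest GC to 0.05 in the highest. The labels do not say whether libraries with the same number in both groups share a day or batch.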

How the data were processed

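RNA of C4-2 cells was sequenced as 40-base single reads. The authors aligned them to GRCh37 with TopHat and counted reads per Ensembl gene with HTSeq, so the deposited values are raw counts per gene and lane. The submitters' processing notes name TopHat2 2.0.4, HTSeq 0.5.3p9 and DESeq 1.10.1. Reads that aligned to several places or to overlapping genes were not counted, and strand use is not given in the sources used here.

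For each library the counts of its lane files (23 files for DMSO) were summed and the 5 counter lines removed. Reads outside genes were 5.74% to 6.96% and ambiguous reads 3.87% to 4.10% of uniquely aligned reads. The counter of alignments that were not unique was larger. It stood at 26.8% to 29.3% of its sum with the uniquely aligned reads, and these alignments did not enter the counts. Of 54127 gene IDs, 47098 matched GENCODE 44 on GRCh37, which gave symbols, loci and exon lengths, and unmatched genes held 1.42% of counts. The matched genes with at least 200 bases of exon entered TPM, a limit chosen after seeing the data. Replicates 4 to 6 were compared with 1 to 3 in edgeR 4.0.16 (R 4.3.3; TMM factors, quasi-likelihood test, Benjamini-Hochberg adjustment over all tested genes, at least 10 counts in at least 3 libraries). An exact permutation test of 3 libraries against 3 cannot go below p = 0.1, so none is given. DESeq2 1.42.0 and limma 3.58.1 were alternatives. On simulated data of this design (14125 genes) the test recovered 87% of 100 genes changed 1.5-fold and 99% of 100 changed 2-fold. Of its calls, 9.71% were false, above the adjusted p threshold of 0.05. The changed genes were drawn only from those above a set mean count, and recovery was not split by level. These rates thus do not give the power for genes of few counts. The simulated counts also held no shift shared by genes of like length or GC, unlike the libraries described above. Promoters came from RefSeq on GRCh38.p14.

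Named genes were the 20 nuclear protein-coding genes of highest TPM, the highest members (up to 8) and silent members of each list, genes known in LNCaP cells, the 8 largest differences in each direction between the sets (called genes whose mean log2 CPM was 3 or more and whose sets did not overlap), the 10 most and least variable genes and PBK. Others named, such as low members of lists and MME, were chosen after their values were seen. The members and lists were chosen with earlier results of these data known. Of the listed genes, 12 matched no row and are not analysed here. Results of some genes are not reported here.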

Additional observations from a re-analysis of the deposited data

Results flagged for a closer look

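In 26 of the 209 named genes with any spread, 1 of the 6 DMSO libraries stood apart from the other 5, with a gap to the nearest of them beyond Dixon's limit for 6 values as a share of the range (chance passes it in about 1 of 20 groups). Many of these genes were named for their spread or their difference between sets, FTH1, LRP3 and PITX1 among them, so the number is not to be read against that rate. Replicate 5 was the library apart in 17 of them. It was the highest for FTH1 (259 CPM, 92.1 to 115 in the others), LRP3 (90.9, others 40.7 to 49.8), PITX1 (69.8, others 31.9 to 38.9), ESRRA (102, others 70.1 to 78.9), EPHB4 (111, others 79.8 to 89.3), DDR1 (212, others 157 to 172), RXRA (138, others 103 to 114), ST14 (244, others 178 to 199), SPINT1 (219.9, others 176 to 190.5), CLDN4 (321, others 267 to 285), JUNB (37.4, others 20.1 to 26.6), ELK1 (67.1, others 54.3 to 57.7), NR1H2 (59.1, others 46.1 to 50.6) and PMEL (4.05, others 2.51 to 3.03). Replicate 5 was the lowest for GABPA (47.9 CPM, 55.7 to 59.2 in the others) and RYK (72.7, others 80.6 to 85.2). Replicate 5 is also the library whose values rose with GC content.

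Replicate 6 was the highest for ELK4 (269 CPM, 191 to 213 in the others) and the lowest for RPL13A (1461, others 1706 to 1813) and ERGIC3 (188, others 194 to 195). Replicate 3 was the lowest for ALAS1 (68.3 CPM, others 72.5 to 74.7) and replicate 2 for HNRNPD (342, others 350.2 to 354), while replicate 2 was the highest for COL1A1 (22.3, others 17.0 to 18.2). The remaining 4 rest on 1 to 3 reads and cannot be told from counting error, namely ESR1 in replicate 6 (0.248 CPM from 3 reads), TP63 in replicate 1 (0.0950 CPM from 2 reads), TWIST1 in replicate 5 (0.104 CPM from 1 read) and KIT in replicate 1 (0.0475 CPM from 1 read).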

How the results depend on the processing

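The 812 genes that differed between replicates 4 to 6 and 1 to 3 of DMSO became 1328 with no count filter and 12 at an adjusted p under 0.01, and ranged from 0 to 1997 when each library was left out in turn. The 51 genes of PBKi became 584 with no count filter, 29 at a mean CPM of at least 5, 212 with the DESeq2 Wald test and 6 at an adjusted p under 0.01, and ranged from 0 to 206 when each library was left out. The cause was not tested. The other alternatives kept both counts within 1.5 times. The median CV was 37.7% with no count filter, which adds genes of few counts. Genes at 1 TPM in every library (12963 to 13099 with 1 library left out) and genes with 0 counts (24827 to 25639) moved little, and with genes of all lengths in TPM, chosen after seeing the data, 12942 reached 1 TPM. With the length of the longest transcript, 12 of 209 named levels were over 1.5 times higher and 0 over 1.5 times lower, KLK3 being at 3279 TPM. Of the named genes, 44 lost the call of their set difference in at least 1 alternative fit (154 pairs of gene and fit) and 24 gained one (43 pairs). No paired analysis was possible because the sets compared share no replicate number. Depth limits genes under 1 CPM, where counting error accounts for a CV of 32.2%.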

Other observations

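Immediate early genes, which respond within minutes to growth factors and stress, were transcribed unequally. JUND (208 ± 50.6 TPM, SD, n = 6) and MCL1 (161 ± 14.6) led the list, followed by JUNB (61.7 ± 13.7), ATF3 (46.9 ± 7.64) and JUN (45.5 ± 7.82). FOS and EGR1, the usual first responders, were low, with FOS at 0.140 TPM in its lowest library, 1.96 at the median and 3.49 in its highest, and EGR1 at 0.642 ± 0.227 TPM. Of 20 measured genes of this list, 13 reached 1 TPM in every library.

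Interferon-stimulated genes were low, with 9 of 21 measured at 1 TPM in every library and 0 at 100 TPM. ISG15 had 57.3 ± 12.4 TPM, IFI6 27.2 ± 1.13 and IRF7 21.4 ± 3.40, while IFIT1 (0.763 ± 0.222) and MX1 (0.438 ± 0.0816) lay under 1 TPM on average. IRF9 was the only called gene among the 13 tested between the sets of replicates (log2 difference -0.68, lower in replicates 4 to 6), a count near the 5.67% called of all genes, and that call held in 1 of the 6 fits without 1 library.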
